A study of Mus musculus with 10 samples.

Results

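Revitalized mesenchymal stromal cells (rMSC), the submitters' name for cultured mouse bone marrow stroma that received the genes Klf7, Ostf1, Xbp1, Irf3 and Irf7, were compared with the fresh stroma that such cultures are seeded from. Accessible DNA was mapped by ATAC-seq, in which a transposase cuts open chromatin and tags the cut ends. Of the 10 libraries of the series, 5 entered the comparison by their labels: 3 of rMSC and 2 of freshly sorted CD45-, Ter119- and CD31-negative cells positive for Scf-GFP, a reporter for stem cell factor. These 2 libraries are called fresh stroma below. The other libraries, 3 of stroma cultured with a control vector (the vector controls) and 2 of fresh Scf-GFP-negative cells, are given beside them. All cells came from strain C57BL/6J, the labels of the fresh cells name no vector, and the protocol grows the cultures in medium with serum and FGF-basic. A difference between rMSC and fresh stroma can therefore come with culture, serum, FGF, transduction or the 5 genes, and these cannot be told apart here. The age of the animals is not given in the labels used here, and the labels do not tie replicates to different animals or cultures. The p-values therefore cover the scatter of these libraries alone, which may be technical.

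Scf-GFP marks the perivascular reticular cells of the marrow, which make stem cell factor (Kitl) and the chemokine Cxcl12 and thereby hold blood stem cells. These cells also give rise to bone and fat, and they are known to lose niche factor expression when they are grown on plastic. An ATAC peak marks a site where nucleosomes leave room for proteins. Peaks at gene starts are often shared by many cell types, whereas distal peaks, which include enhancers, differ more between cell types.

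The deposited lists held 47632 and 68273 peaks on chromosomes 1 to 19 and X in fresh stroma and 66262, 70954 and 78470 in rMSC. Sequencing depth is unknown, since read counts were not analysed here, and a site absent from a list may be open and undetected. All comparisons used lists of equal length, the 39912 peaks of highest −log10 p per library. Equal length did not level peak strength: the weakest peaks kept had a −log10 q of 4.268 and 4.295 in fresh stroma and 4.672 to 5.802 in rMSC. Of the 12 reticular stroma markers all were open in both fresh libraries and 11 in each rMSC library, where Lepr, the leptin receptor, had no summit. These markers held 62 and 46 summits in fresh stroma, 36, 37 and 39 in rMSC, 52 to 60 in the vector controls and 11 and 7 in Scf-GFP-negative cells. The 10 pan-blood markers held 31 and 34 summits in fresh stroma, 15 or 16 in rMSC, 16 to 19 in the vector controls and 43 and 55 in Scf-GFP-negative cells, although the sort removed CD45-positive cells. Replicate 1 of each group ran on flow cell AHY33MBCXX and the others on AC99CPACXX, so each flow cell holds both groups, with 1 library of each on AHY33MBCXX.

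Gene starts were largely shared and distal sites were not. A peak was placed at a start when its summit lay within 1 kb of a RefSeq gene start, and distal otherwise. The share of distal peaks was 68.0% and 68.7% in fresh stroma and 72.5%, 72.6% and 72.2% in rMSC, so the groups did not overlap. Means were 68.3 ± 0.478% (SD, n = 2) and 72.4 ± 0.236% (n = 3), a difference of 4.08 percentage points (two-sided exact permutation p = 0.1, the smallest that 10 groupings allow). The vector controls had 72.5 ± 0.851%. Within each flow cell the rMSC libraries were also higher.

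The Jaccard index, the share of covered bases that 2 libraries have in common, separated both kinds of site. At starts it was 0.574 on average between fresh and rMSC libraries (0.569 to 0.579 over 6 pairs), 0.691 within fresh stroma and 0.687 within rMSC. At distal peaks it was 0.165 between the groups (0.158 to 0.173), 0.389 within fresh stroma, 0.484 within rMSC and 0.308 between rMSC and the vector controls. Every distal pair across the groups was thus less alike than any pair within them. Pairs from 1 flow cell gave 0.159 to 0.173 and pairs across flow cells 0.158 to 0.172. Between fresh stroma and the vector controls the index was 0.186 at distal peaks (0.179 to 0.196) and 0.5735 at starts.

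**Figure D1:**
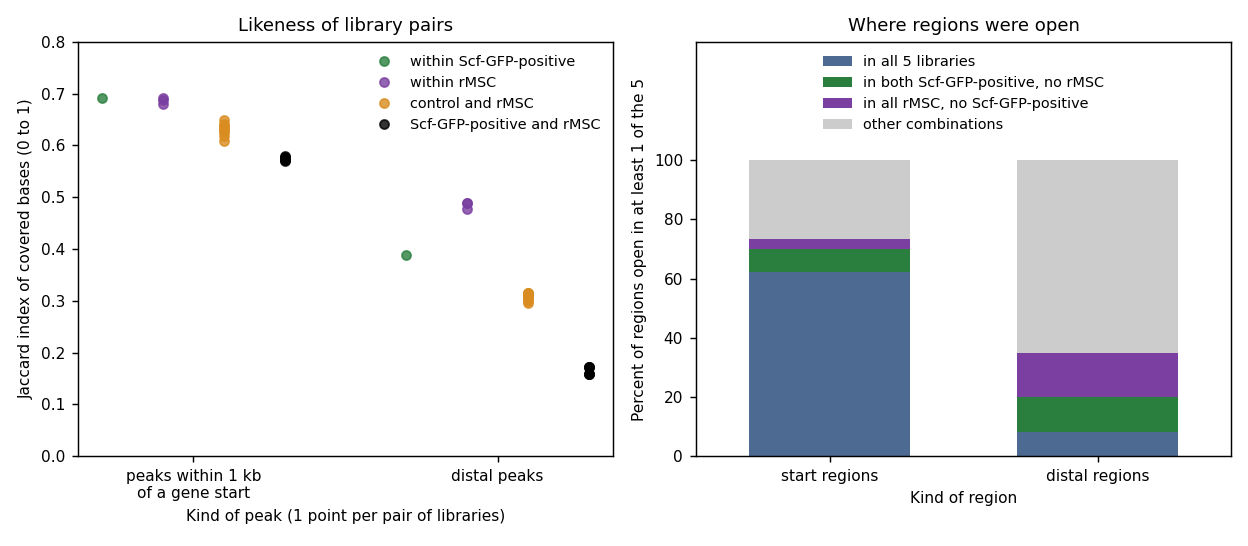
Left: Jaccard index of covered bases, 1 point per pair of libraries, for peaks at gene starts and distal peaks. Right: percent of start and distal regions that were open in all 5 libraries, in 1 group only or in other combinations. Distal pairs between fresh stroma and rMSC lie at 0.158 to 0.173, below all other pairs shown, and 8.22% of distal regions against 62.2% of start regions were open in all 5.

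Peaks were merged over the 10 libraries, and at least 1 of the 5 libraries was open at 76114 merged regions. Of the 12571 start regions among them 62.2% were open in all 5, against 8.22% of the 58955 distal regions. In both fresh and no rMSC libraries 8491 regions were open, and 9483 in all rMSC and no fresh libraries. Being open in 2 of 2 libraries is easier than in 3 of 3, so the numbers are not compared with each other. Without fresh replicate 1 the former number was 16509 and without replicate 2 it was 16806, because 1 library then sets it. Of the regions that could be placed, 87.6% of the fresh and 95.4% of the rMSC ones were distal. In the full lists, 86.8% of the rMSC regions had no summit in fresh stroma, and 74.4% of the fresh regions had none in rMSC. The full lists differ in number and length between the groups, so these shares are not compared with each other. As a description of other libraries at these sites, 39.8% of the rMSC regions were open in all 3 control libraries and 29.8% in none, while 72.1% of the fresh regions were open in no control library.

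Among strong sites distal regions were also less shared than starts, but most of them were shared. Of 2314 distal regions among the 10000 highest peaks of every rMSC library, 55.0% were open in every fresh library and 33.5% in none. Of 1515 such distal regions in fresh stroma 78.9% were open in every rMSC library and 14.4% in none. At starts 98.5% of 4034 rMSC regions were open in every fresh library and 0.967% in none. Of 5799 fresh start regions 96.5% were open in every rMSC library and 1.33% in none. The groups differ in their number of libraries, so rMSC and fresh shares are not compared with each other.

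The highest rMSC regions, picked by the rank of their weakest peak, were distal and open in every control library and no Scf-GFP-negative one. The first, chr15:91092058-91092913, lies between genes 42542 bp from the start of Kif21a, a kinesin motor gene, and had the authors' fold enrichment of 63.9, 62.6 and 68.4 in rMSC and 30.9 to 42.4 in the vector controls. The next were in the body of Sox5, a cartilage regulator (chr6:143915745-143917066, 46.9, 55.6 and 48.3), and between genes 99422 bp from Nr2f2, a nuclear receptor of mesenchyme (chr7:70266895-70267699, 47.7, 47.9 and 46.1). A region 9156 bp from Serpina3n, a protease inhibitor gene (chr12:104415314-104416403), had a fold of 43.7, 40.9 and 49.0 in rMSC and 50.9 to 54.0 in the vector controls. None of these 4 held a summit in the full fresh lists.

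Among the highest fresh regions, 1 lay in the body of Tiam1, a Rac exchange factor (chr16:90142499-90144849), with the authors' fold of 32.7 and 35.2 and no summit in any full rMSC list. It was open in all 3 control libraries (7.71 to 18.5) and both Scf-GFP-negative ones (20.4 and 35.2), so of the 10 libraries only the 3 rMSC lists lacked it. Another lay 656 bp from the start of Tusc1 (chr4:93334271-93336076, 32.0 and 26.4) and was also open in all controls and in no full rMSC list. The highest, at the start of Atp8a1, a phospholipid flippase gene (chr5:67846134-67848702, 44.0 and 34.6), was open in no control list, but the full lists of 2 rMSC libraries held a summit there. The fold values are the authors' and rank peaks within a list only.

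At gene starts, 8002 of 17274 protein-coding genes with a RefSeq start had a summit within 1 kb in all 5 libraries. A start peak was present in both fresh and no rMSC libraries at 638 genes and in all rMSC and no fresh libraries at 168. Per library 9831 and 9800 genes had a start peak in fresh stroma and 8914 to 9008 in rMSC. Among the 638 were Adcy2, an adenylate cyclase gene, Pparg, the master regulator of fat cells, and Alpl, the bone alkaline phosphatase. The Pparg start had the authors' fold of 12.8 and 6.29 in fresh stroma and 5.40 to 7.39 in the vector controls, and it was listed in the full lists of 3 rMSC libraries, so its absence holds for the equal-size lists only. Among the 168, Hspb8, a small heat shock protein gene, was highest, with 38.8, 37.1 and 37.9 in rMSC, 22.4 to 24.7 in the vector controls and no summit in the full fresh lists.

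Promoter sequences were then read over windows, not for these 638 and 168 genes. A window counted when a summit lay inside its 300 bases. A window with no summit in 1 group could therefore have one from that group elsewhere within 1 kb of the start. For 32619 RefSeq promoter windows, 250 bases before to 50 after a gene start (GRCm38.p6, the mm10 build), 16 motifs were searched on both strands, and 3 are described, chosen after their values were seen. TGANTCA, the site of the AP-1 factors Fos and Jun, stood in 7.85% of all windows. It stood in 4.15% and 4.16% of the windows that held a summit in the fresh libraries and in 5.66%, 5.51% and 5.74% of those in rMSC. The 3 rMSC libraries thus lay above both fresh ones. The vector controls, at 5.08%, 5.48% and 5.42%, also lay above both fresh ones and only slightly below rMSC. Fresh and rMSC libraries did not overlap for most of the 16 motifs. Of 385 windows (370 genes) with a summit inside them in all rMSC and no fresh libraries, 76 (19.7%) held the AP-1 letters. Of 641 (615 genes) with the reverse pattern, 22 (3.43%) did. These 385 and 641 windows are called specific below, by summits inside the window alone. CCCNNGGGA, a site of the Ebf factors, stood in 6.60% of all windows, in 8.32% and 8.20% of those in fresh stroma and in 7.24% to 7.33% in rMSC. The vector controls had 7.53%, 7.13% and 7.45%. These Ebf letters were in 12.0% of the windows specific to the fresh lists and in 5.97% of those specific to rMSC. CCNCNCCC, a site of the Klf family to which Klf7 belongs, stood in 49.8% of all windows, in 73.7% and 72.7% of those in fresh stroma and in 70.0% to 70.2% of those in rMSC. In the vector controls 71.5%, 70.7% and 71.5% held it. This Klf site was in 78.5% of the fresh-specific and in 54.3% of the rMSC-specific windows. Of the windows open in all 5 libraries, 72.9% held this Klf site, 4.27% the AP-1 site and 6.79% the Ebf site. A match describes letters, not binding, and the windows cover starts only.

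These stretches, the 250 bases before each start, show the motif where it was found, in capitals. For fresh stroma the 3 windows with the highest weakest peak that held the Ebf letters are given. Igsf10 encodes an immunoglobulin-domain protein, Slc35g1 a transporter and Sdk1 a cell adhesion protein. Their starts had the authors' fold of 22.0 and 20.7, 14.9 and 16.3, and 17.8 and 12.6, and the full lists of 1, 2 and 1 rMSC libraries held a summit there.
Igsf10 (chr3:59344257-59344506, minus strand): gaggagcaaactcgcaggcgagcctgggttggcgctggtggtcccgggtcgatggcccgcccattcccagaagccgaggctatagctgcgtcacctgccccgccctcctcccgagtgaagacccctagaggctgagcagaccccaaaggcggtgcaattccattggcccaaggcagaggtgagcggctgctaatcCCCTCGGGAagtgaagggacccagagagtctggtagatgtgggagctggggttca
Slc35g1 (chr19:38395730-38395979, plus strand): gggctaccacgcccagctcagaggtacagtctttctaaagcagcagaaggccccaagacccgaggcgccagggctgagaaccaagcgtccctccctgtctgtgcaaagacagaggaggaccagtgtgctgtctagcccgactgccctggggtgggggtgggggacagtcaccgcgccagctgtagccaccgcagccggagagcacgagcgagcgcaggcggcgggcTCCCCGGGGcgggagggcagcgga
Sdk1 (chr5:141241284-141241533, plus strand): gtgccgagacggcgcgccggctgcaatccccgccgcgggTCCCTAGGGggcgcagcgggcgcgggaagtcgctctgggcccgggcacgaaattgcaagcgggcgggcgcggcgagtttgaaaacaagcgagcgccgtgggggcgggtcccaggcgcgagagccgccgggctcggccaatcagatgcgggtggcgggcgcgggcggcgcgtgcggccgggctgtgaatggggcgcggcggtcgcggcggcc
Of these 3, Igsf10 had no start peak in any other equal-size list of the series, whereas Sdk1 had one in 2 control libraries.

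For rMSC, Hspb8 is shown as the highest start and holds no AP-1 letters in the stretch. Gpr39, a zinc-sensing receptor gene, Dhrs9, a retinol dehydrogenase gene, and Neu2, a sialidase gene, hold them. Their starts had the authors' fold of 25.1, 19.3 and 29.7 (Gpr39), 15.4, 17.8 and 17.8 (Dhrs9) and 14.6, 21.6 and 12.6 (Neu2), and all 3 were also open in every control library. The full list of 1 fresh library held a summit at the Gpr39 start. Ctla2b, which ranked between Dhrs9 and Neu2, has close gene copies and is left out.
Hspb8 (chr5:116422865-116423114, minus strand): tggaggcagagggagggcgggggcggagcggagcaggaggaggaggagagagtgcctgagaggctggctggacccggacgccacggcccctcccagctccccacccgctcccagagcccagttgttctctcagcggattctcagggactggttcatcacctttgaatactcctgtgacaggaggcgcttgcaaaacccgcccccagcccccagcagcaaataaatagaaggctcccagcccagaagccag
Gpr39 (chr1:125676746-125676995, plus strand): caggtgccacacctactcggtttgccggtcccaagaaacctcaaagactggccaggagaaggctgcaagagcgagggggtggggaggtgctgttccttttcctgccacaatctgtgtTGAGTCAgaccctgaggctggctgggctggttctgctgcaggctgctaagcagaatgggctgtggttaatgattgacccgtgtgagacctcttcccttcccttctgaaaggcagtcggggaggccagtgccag
Dhrs9 (chr2:69380212-69380461, plus strand): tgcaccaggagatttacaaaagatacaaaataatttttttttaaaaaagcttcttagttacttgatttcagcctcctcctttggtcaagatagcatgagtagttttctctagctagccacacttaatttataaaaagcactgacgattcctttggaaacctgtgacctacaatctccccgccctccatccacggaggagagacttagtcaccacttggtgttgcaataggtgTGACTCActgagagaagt
Neu2 (chr1:87594300-87594549, plus strand): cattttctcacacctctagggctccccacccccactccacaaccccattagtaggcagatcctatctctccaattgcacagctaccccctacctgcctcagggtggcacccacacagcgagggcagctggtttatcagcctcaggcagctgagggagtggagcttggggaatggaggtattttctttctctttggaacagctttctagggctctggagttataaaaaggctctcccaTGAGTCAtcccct
The Ebf letters read forward in Igsf10 and on the other strand in Slc35g1 and Sdk1. In Gpr39 and Neu2 the capitals read TGAGTCA and in Dhrs9 TGACTCA, which are the same site on opposite strands.

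**Figure D2:**
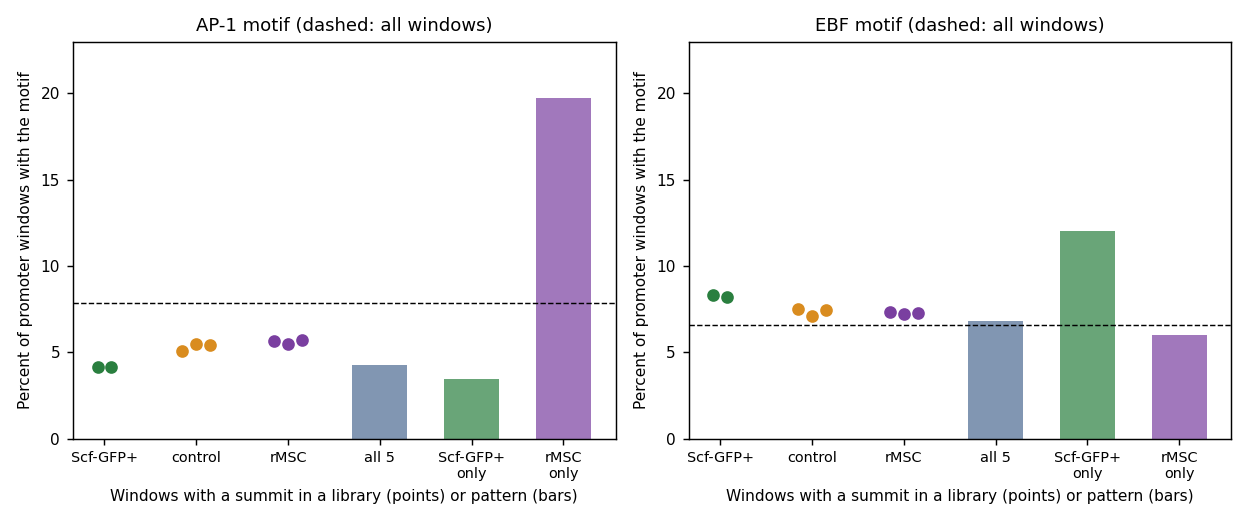
Percent of promoter windows that hold the AP-1 (left) or Ebf (right) letters. Points are the windows with a summit inside them in each library. Bars are those with such a summit in all 5 libraries, only the fresh or only the rMSC lists. The dashed line is all 32619 windows. The AP-1 bar of rMSC reaches 19.7% against 3.43% for fresh stroma, and the Ebf bars 5.97% against 12.0%.

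Summits were then counted per gene locus, the gene body extended by 10 kb both ways, so that a count includes distal sites and can include those of a neighbouring or overlapping gene. Loci averaging 2 or more summits over the libraries numbered 9159, of which 704 had more summits in rMSC (7.69% of those tested) and 599 fewer (6.54%), by limma with a Benjamini-Hochberg adjusted p under 0.05. Log2 changes are rMSC minus fresh on the scale log2(summits + 0.5), which understates changes of loci with few summits, with their standard error (SE). The median over all tested loci was 0. With distal summits alone, 468 of 3454 loci had more (13.5%) and 311 fewer (9.0%). Without fresh replicate 1 the locus numbers were 327 and 222 and without replicate 2 they were 393 and 286. Without rMSC replicate 1, 2 or 3 there were 376, 358 and 395 loci with more and 375, 376 and 412 with fewer. In bulk samples, fewer cells with an open site and a site less open in each cell cannot be told apart.

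Most of these loci had a peak at the gene start in both groups. Of the 552 loci with more summits whose gene has a RefSeq start, 403 (73.0%) had a start peak in all 5 libraries, close to the 74.4% of all tested loci. Of 479 loci with fewer summits 270 (56.4%) had one, and at 83 the start peak was present in both fresh and no rMSC libraries. Over all 17274 genes with a RefSeq start, tested or not, 638 (3.69%) had that pattern. A start peak is itself a counted summit, so these shares follow in part from how the loci were picked.

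The peaks were not spread over chromosomes alike. Chromosome 10 held 5.83% and 5.87% of the peaks in fresh stroma, 5.75% to 6.06% in the vector controls and 7.60%, 7.73% and 7.99% in rMSC. Chromosome 15 held 4.22% and 4.17% in fresh stroma and 5.98% to 6.04% in rMSC. Chromosome 4 held 6.50% and 6.55% in fresh stroma, 5.75% to 5.92% in the vector controls and 4.76% to 4.88% in rMSC. The 3 rMSC libraries stood together and apart from both other groups on these chromosomes. DNA copy number was not measured.

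**Figure D3:**
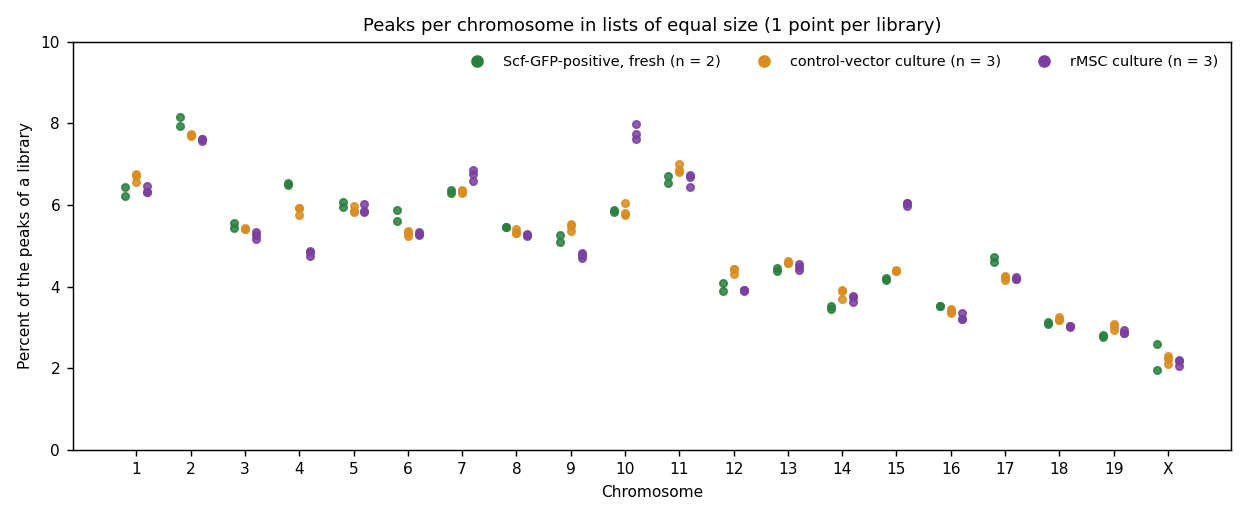
Percent of the 39912 peaks of each library that lie on each chromosome, 1 point per library. The 3 rMSC libraries lie at 7.60% to 7.99% on chromosome 10 and 5.98% to 6.04% on chromosome 15, above the other groups, and at 4.76% to 4.88% on chromosome 4, below them.

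On chromosome 15, 71 of 419 tested loci had more summits and 9 fewer, on chromosome 10, 69 of 534 and 17, and on chromosome 4, 13 of 542 and 54. After the mean of each chromosome was set equal in all libraries these became 34 and 32, 41 and 34, and 33 and 30. Over all chromosomes the adjusted fit called 685 loci with more (7.48%) and 583 with fewer summits (6.37%), of which 581 and 472 were among the unadjusted calls. Values with chromosome means set equal are called chromosome-adjusted below.

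The 12 loci with the largest losses included Alpl and Adcy2. Alpl (NCBI Gene 11647, chr4:137741731-137796384), the bone alkaline phosphatase, had 11 and 9 summits in fresh stroma, 1 in each control library and none in rMSC. Its log2 change was −4.39 ± 0.45 (limma adjusted p = 0.00162) and −4.13 chromosome-adjusted (adjusted p = 0.00137), and the full lists of rMSC held 1, 1 and 3 summits against 12 and 13. Adcy2 (NCBI Gene 210044, chr13:68620043-68999600) had 10 summits in both fresh libraries, 2, 3 and 4 in the vector controls and none in rMSC (adjusted p = 0.000257). Its start peak was absent from all rMSC lists as well.

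Xylt1 and Tiam1 set rMSC apart from all other libraries. Xylt1 (NCBI Gene 233781, chr7:117380979-117667630), which starts the sugar chains of proteoglycans, had 8 and 13 summits in fresh stroma, 9, 5 and 12 in the vector controls, 13 and 14 in Scf-GFP-negative cells and none in rMSC (limma adjusted p = 0.000548). Its full rMSC lists held 0, 0 and 6. Tiam1 (NCBI Gene 21844, chr16:89787111-90145600) had 8 and 4 summits in fresh stroma, 9, 6 and 6 in the vector controls and none in rMSC (adjusted p = 0.000563). Its full rMSC lists held 0, 1 and 1. At these loci the lists of the vector controls overlapped those of fresh stroma.

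St3gal6, a sialyltransferase gene, Sema4d, a semaphorin gene, and Car3, a carbonic anhydrase gene, had 0 or 1 summit in each culture library and 5 or more in each library of fresh cells, Scf-GFP-negative ones included. St3gal6 had 13 and 12 summits in fresh stroma, 10 and 9 in Scf-GFP-negative cells, none in the vector controls and 1, 0 and 0 in rMSC (limma adjusted p = 0.00214). Car3 had 8 and 7, 5 and 8, none and none (adjusted p = 0.00037). Pappa, a protease that releases insulin-like growth factors, fell from 15 and 12 summits to 0, 2 and 1 (adjusted p = 0.0115) and Adamts9, a proteoglycan-cleaving protease, from 15 and 11 to 0, 1 and 1 (adjusted p = 0.0171), but neither call passed without either fresh library. The vector controls held 4 summits each at Pappa and 6, 5 and 5 at Adamts9.

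The largest gains were at loci with no summit in either fresh equal-size list. Tnni3k (NCBI Gene 435766, chr3:154786291-155055407), a kinase gene known from heart muscle, had 9, 9 and 10 summits in rMSC and 8, 8 and 6 in the vector controls (limma adjusted p = 0.00115), all of them distal. Trpm6, a magnesium channel gene, had 7, 7 and 6 in rMSC and 5, 7 and 5 in the vector controls (adjusted p = 0.000115). Soat2, a cholesterol esterification gene on chromosome 15, had 5, 6 and 6 against 4, 4 and 5 (adjusted p = 8.49e-05, chromosome-adjusted 0.000121). In these 3 the culture libraries all held at least 4 summits.

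Cadps (NCBI Gene 27062, chr14:12372560-12823339), which primes vesicles for release, was open in rMSC alone, with 4, 9 and 9 summits there and none in any of the other 7 equal-size lists (limma adjusted p = 0.00421). Its full lists held 14, 16 and 15 summits in rMSC and 0 to 2 elsewhere. Ptprr and Ano4, a phosphatase and a channel-family gene on chromosome 10, had 8, 7 and 7 and 6, 8 and 5 summits in rMSC, and 4, 5 and 4 and 2, 4 and 2 in the vector controls (adjusted p = 0.00581 and 0.000563, chromosome-adjusted 0.00271 and 0.000303). Both stood higher in every rMSC than in every control library. The full lists held 0 and 4 summits at Ptprr in fresh stroma and 11, 12 and 10 in rMSC. At Ano4 they held 0 and 1, and 14, 19 and 21. The Ptprr call did not pass with all deposited peaks.

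**Figure D4:**
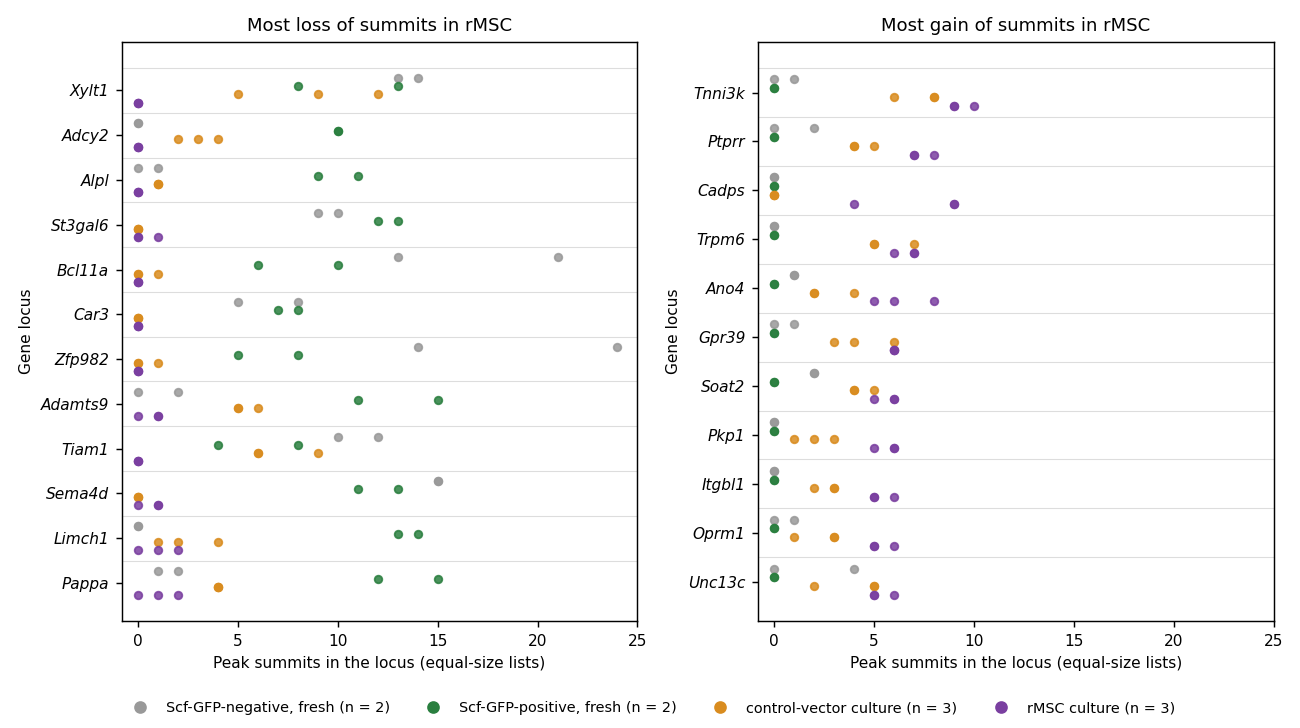
Peak summits per locus in the equal-size lists, 1 point per library, for the 12 named loci with the largest loss (left) and 11 of the 12 with the largest gain (right) in rMSC. Both fresh libraries lie at 0 at the 11 gained loci shown, and Xylt1 and Tiam1 are at 0 in rMSC but not in the vector controls.

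Niche factor loci mostly did not pass the test. With 2 against 3 libraries, a p that misses the threshold does not show that a locus was the same in both groups. Of 17 tested niche factor loci 1 had more summits, Fgf2, and none fewer, with a median log2 change of −0.07 against 0 over all loci. Over all tested loci 7.69% had more and 6.54% fewer, so the 1 with more stood near that share. Kitl (NCBI Gene 17311, chr10:100015615-100100416) had 7 and 2 summits in fresh stroma, 4, 3 and 4 in rMSC and 6, 6 and 5 in the vector controls, so the groups overlapped (log2 −0.07 ± 0.55, limma adjusted p = 0.983). Cxcl12 had 2 and 3 summits, 3, 2 and 2 in rMSC and 3, 5 and 3 in the vector controls (log2 −0.08 ± 0.46, adjusted p = 0.952). Its start peak, present in both fresh and all control libraries, was in 1 of 3 rMSC lists. Angpt1, a ligand of blood and vessel cells, had 11 and 8 against 6, 7 and 7 and did not pass (adjusted p = 0.218), but did when chromosome-adjusted (log2 −0.87, adjusted p = 0.038). Vcam1, an adhesion molecule, had 1 summit in each fresh and 1, 2 and 1 in rMSC libraries, too few to test. Fgf2, a growth factor that was also added to the medium, had 2 and 2 summits in fresh stroma, 7, 9 and 6 in rMSC and 8, 9 and 7 in the vector controls (log2 1.63 ± 0.18, adjusted p = 0.00224).

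Several bone lineage loci had fewer summits in rMSC. Of 13 tested osteoblast loci 6 had fewer summits (Alpl, Bmp6, Pth1r, Phex, Col1a1 and Lrp5) and 1 more, with a median log2 change of −0.72. Over all tested loci 6.54% had fewer and 7.69% more, so the 1 with more stood near that share. Bmp6, a bone growth factor, had 12 and 8 summits in fresh stroma, 5, 4 and 6 in the vector controls and 2, 1 and 1 in rMSC (log2 −2.54 ± 0.33, limma adjusted p = 0.00481). Pth1r, the parathyroid hormone receptor, had 11 and 10, 2, 1 and 1, and 2, 3 and 4 (log2 −1.69 ± 0.30, adjusted p = 0.0131, but 0.0744 without fresh replicate 1 and 0.055 without replicate 2). Col1a1, the main bone collagen, had 12 and 14 summits in fresh stroma, 10, 7 and 8 in the vector controls and 6, 6 and 5 in rMSC (adjusted p = 0.0241). Runx2 and Sp7, which direct bone formation, did not pass, with 17 and 16 against 11, 12 and 8 summits and 6 and 6 against 2, 4 and 5, although Sp7, on chromosome 15, passed when chromosome-adjusted (adjusted p = 0.036). Tnfrsf11b, the decoy receptor osteoprotegerin on chromosome 15, had more (1 and 2 against 3, 4 and 4, adjusted p = 0.0257), a call lost when chromosome-adjusted (adjusted p = 0.171) and without fresh replicate 1 (0.076).

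Regulators of reticular, fat and perivascular cells moved in the same direction where they passed. Of 17 reticular identity loci 4 had fewer and none more, and 2 had fewer and 1 more when chromosome-adjusted. The shares over all tested loci were 6.54% with fewer and 7.69% with more, and 6.37% and 7.48% when chromosome-adjusted. Zeb2 had 18 and 14 summits in fresh stroma, 7, 10 and 9 in the vector controls and 5, 5 and 6 in rMSC (log2 −1.49 ± 0.19, limma adjusted p = 0.00463), and Prrx1, a limb mesenchyme factor, 8 and 5, 4 in each, and 2, 3 and 2 (adjusted p = 0.0115, but 0.052 without fresh replicate 1). Ebf1 had 12 and 12 summits in fresh stroma, 11, 11 and 16 in the vector controls and 8, 5 and 7 in rMSC, a call at the edge of the threshold (adjusted p = 0.0491, chromosome-adjusted 0.0553) that 9 of 10 left-out libraries ended (at most 0.17, without fresh replicate 1). Ebf3 had 3 and 3 summits against 5, 5 and 7 in rMSC and 12, 9 and 11 in the vector controls and did not pass. Of 12 adipocyte loci 3 had fewer: Zfp423, an early fat cell factor (11 and 11 against 3, 4 and 5, adjusted p = 0.00651), Scd1 and Pparg. When chromosome-adjusted 2 had fewer. The Pparg call was then lost (adjusted p = 0.0732), as it was without fresh replicate 1 (0.106) and without each rMSC library, and that of Scd1 was lost without fresh replicate 2 (0.0558). Of 15 smooth muscle and pericyte loci 3 had fewer, Notch3, Tbx2 and Tbx18, and none more.

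Several Notch, semaphorin and plexin loci had fewer summits as well. Of 13 Notch pathway loci 4 had fewer summits, the receptors Notch3, Notch4 and Notch1 and the ligand Dll1, and none more. With chromosome means set equal only 1 passed. Over all tested loci 6.54% had fewer, and 6.37% with chromosome means set equal, so that 1 locus stood near the latter. Notch3 (NCBI Gene 18131, chr17:32120820-32166896) had 11 and 8 summits and a start peak in both fresh libraries, 2, 1 and 2 summits in the vector controls and 2, 1 and 3 in rMSC with no start peak (log2 −2.07 ± 0.38, limma adjusted p = 0.0149, but 0.0882 without fresh replicate 1). Of 28 axon guidance loci 8 had fewer and none more, with a median log2 change of −0.35, and 9 had fewer when chromosome-adjusted. Sema4d fell from 11 and 13 summits to 1, 1 and 0 (adjusted p = 0.00374), Efna5, an ephrin, from 9 and 14 to 3, 3 and 3 (adjusted p = 0.00812), and the plexin receptor Plxnd1 from 11 and 6 to 2, 2 and 2 (adjusted p = 0.0414). Sema6d had 13 and 11 summits in fresh stroma, 10, 5 and 6 in the vector controls and 1, 1 and 2 in rMSC (adjusted p = 0.0281, but 0.132 without fresh replicate 1).

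Wnt loci passed in both directions: of 20, 4 had fewer and 2 more. Over all tested loci 6.54% had fewer and 7.69% more, so the 2 with more stood near that share. Rspo3, a secreted Wnt amplifier, fell from 7 and 7 summits to 0, 1 and 1 (control 1, 1 and 2, limma adjusted p = 0.0261), and its receptor Lgr4 from 9 and 7 to 4, 3 and 2 (adjusted p = 0.0172, but 0.0972 without fresh replicate 1). Dkk2, a secreted Wnt inhibitor, had none in fresh stroma, 5, 3 and 3 summits in rMSC and 2, 3 and 4 in the vector controls (adjusted p = 0.00189). Lrp6, a Wnt coreceptor, rose from 3 and 2 to 7, 6 and 7 (adjusted p = 0.0156, but 0.0814 without fresh replicate 2), while its relative Lrp5 fell from 6 and 8 to 4, 4 and 2, at the edge of the threshold (adjusted p = 0.0495).

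Growth factor, matrix and Hippo pathway loci held most of the gains among the lists. Of 25 growth factor loci 6 had more and 1 fewer. The shares over all tested loci were 7.69% with more and 6.54% with fewer. Nrg1, an ErbB receptor ligand, had 1 summit in each fresh library, 13, 10 and 11 in rMSC and 17, 18 and 15 in the vector controls (log2 2.97 ± 0.67, limma adjusted p = 0.0285, but 0.123 without fresh replicate 1). Ereg, another ErbB ligand, had none in fresh stroma and 3 in each rMSC library (adjusted p = 0.00304), and Bdnf, a neurotrophin, rose from 1 and 0 to 5, 4 and 4 (adjusted p = 0.00942). Of 23 matrix and myofibroblast loci 5 had more and 2 fewer, the latter near the share over all tested loci. Timp3, a protease inhibitor gene that lies inside another gene on chromosome 10, had 6 and 6 summits in fresh stroma, 7, 9 and 8 in the vector controls and 21, 25 and 23 in rMSC (log2 1.85 ± 0.13, adjusted p = 0.000384, chromosome-adjusted log2 1.61, adjusted p = 0.00064). Plod2, a collagen-crosslinking enzyme, went the other way, from 12 and 13 to 4, 5 and 6 (adjusted p = 0.00481). Of 16 loci of the YAP, TAZ and Tead group, which respond to stretch and cell contact, 3 had more and none fewer. Fat1, an upstream cadherin, had 5 and 5 against 12, 13 and 11 (adjusted p = 0.00676). The kinase gene Lats2 had 3 and 2 against 8, 6 and 7 (adjusted p = 0.0131, but 0.0679 without fresh replicate 2). Wwtr1, at the edge of the threshold, had 4 and 4 against 6, 5 and 6 (adjusted p = 0.0488, chromosome-adjusted 0.129). The vector controls also stood above both fresh libraries at all 3. They held 11, 12 and 8 summits at Fat1, 5, 6 and 8 at Lats2 and 7, 7 and 8 at Wwtr1.

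Before chromosome adjustment, AP-1 and immediate early loci stood near or below the shares over all tested loci, 7.69% with more and 6.54% with fewer summits. Of 27 tested 1 had more and 2 had fewer. When chromosome-adjusted 1 had more and 4 had fewer, the latter above the 6.37% over all tested loci. Fosl1 had more (2 and 3 against 5, 5 and 5, limma adjusted p = 0.039) and Fos and Btg2 fewer. Fos had 12 and 10 summits in fresh stroma, 7, 4 and 5 in the vector controls and 4, 6 and 6 in rMSC (adjusted p = 0.0399). None of these 3 calls held when either fresh library was left out.

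Several blood cell loci had fewer summits in rMSC, beside the pan-blood markers given above. Of 21 tested, 7 had fewer summits and 2 more, with a median log2 change of −0.79. The shares over all tested loci were 6.54% and 7.69%, so the 2 with more stood near the latter. Ikzf1 (NCBI Gene 22778, chr11:11684962-11772930), a lymphoid regulator, had 4 and 3 summits in fresh stroma, 13 and 19 in Scf-GFP-negative cells and none in either kind of culture (limma adjusted p = 0.000902), also in the full lists. Bcl11a had 10 and 6, 13 and 21, 1, 0 and 0, and none in rMSC (adjusted p = 0.00374), and Fli1, shared by blood and vessel cells, 11 and 12, 2 and 6, 2, 3 and 4, and 1 in each (adjusted p = 0.00475). Red cell and platelet markers held 18 and 18 summits in fresh stroma, 46 and 59 in Scf-GFP-negative cells and 6 to 11 in rMSC, with Gata1 and Gp9 at 0 in fresh stroma and Hbb-bs and Gfi1b at 0 in rMSC. The opposite was seen at Ptprc, which encodes CD45, and the leukocyte integrin Itgb2, at 0 in fresh stroma and at 2 in each and 4, 3 and 5 in rMSC (adjusted p = 0.00164 and 0.000675). Macrophage markers held 12 and 15 summits against 20, 18 and 19 in rMSC and 15 to 18 in the vector controls, with Adgre1 and Tyrobp at 0 in rMSC and Csf1r, Adgre1, Itgam, Itgb2 and Lyz2 at 0 in fresh stroma. The part of other cells in these results was not tested.

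**Figure D5:**
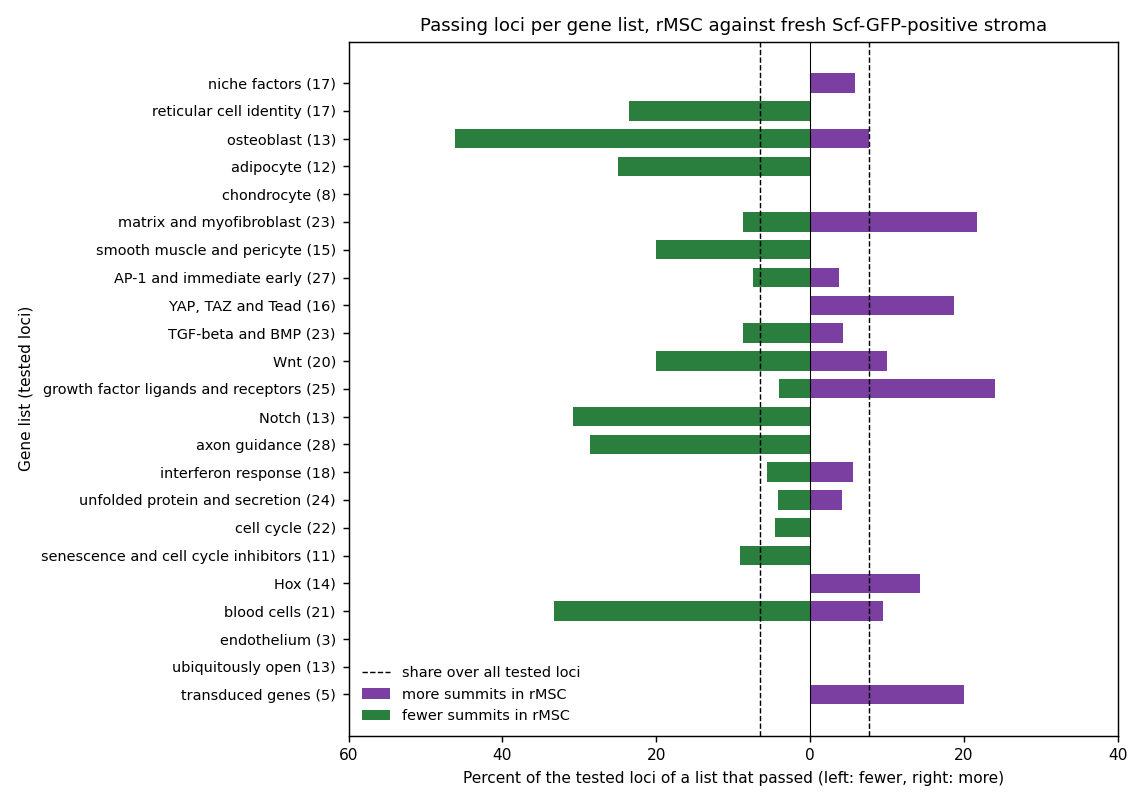
Percent of the tested loci of each gene list (number tested in brackets) that passed with fewer (left) or more (right) summits in rMSC. Dashed lines give the shares over all 9159 tested loci, 6.54% and 7.69%. The longest bars are osteoblast (6 of 13) and blood cell loci (7 of 21) to the left and growth factor loci (6 of 25) to the right.

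Of the 5 transduced genes only Irf3 passed. It had 2 and 1 summits in fresh stroma, 1, 2 and 1 in the vector controls and 3, 5 and 6 in rMSC (log2 1.37 ± 0.35, limma adjusted p = 0.0435), a call lost without 8 of the 10 libraries in turn (at most adjusted p = 0.206, without fresh replicate 2). Reads from the introduced copies and from the cell's own gene cannot be told apart in a peak list. Klf7 (5 and 2 against 2, 3 and 4), Ostf1 (4 and 3 against 5, 5 and 4), Xbp1 (2 and 2 against 2, 2 and 3) and Irf7 (2 and 3 against 2, 2 and 3) did not pass, at adjusted p from 0.507 to 0.937.

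In the other lists few loci passed, where 7.69% of all tested loci had more summits and 6.54% fewer. Interferon response loci passed at 1 with more and 1 with fewer of 18, unfolded protein and secretion loci at 1 and 1 of 24, and TGF-beta and BMP loci at 1 and 2 of 23. Cell cycle loci passed at 0 and 1 of 22 and senescence loci at 0 and 1 of 11. None of the 8 chondrocyte, 3 endothelial and 13 ubiquitously open loci passed. Of 14 Hox loci 2 had more, Hoxc6 and Hoxc9 on chromosome 15, and neither passed when chromosome-adjusted.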

How the data were processed

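Peak lists, 1 per library, were deposited by the authors. Per the submitters' processing notes they come from BWA, MACS2 and the mm10 build, with versions and settings not given in the sources used here. In the narrowPeak format, the deposited columns used are fold enrichment as a ratio, −log10 p-value, −log10 q-value and a score. The values served only to rank peaks within a list. Depth is unknown, which leaves no interval for single values.

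Peaks on chromosomes 1 to 19 and X were cut to the 39912 with the highest −log10 p, the shortest list's length, and ties at the end were drawn at random with a fixed seed. Summits were counted in 21631 protein-coding gene bodies with 10 kb on either side (RefSeq, GRCm38.p6, 1-based mm10 coordinates). Of these genes 17274 have a promoter window. Summits within 1 kb of an end of the other 4357, and chromosome 18, which has no window in the table, were left out of the start and distal split. The values log2(summits + 0.5) were fitted with limma 3.58.1 (R 4.3.3) with a trend over all 4 groups, with 6 residual and 1.61 prior degrees of freedom, for loci averaging 2 or more summits, and the fit was tested on simulated counts. Adjusted p-values are two-sided Benjamini-Hochberg values over all tested loci.

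The libraries, gene lists, motifs and rules were chosen with earlier results of these data known, so list counts are descriptions. Named loci are, per direction, the 12 passing loci with the largest change and no overlap between groups (numbered clones and olfactory or vomeronasal receptors left out, 1 per 50 kb), up to 3 passing members of each list, and 9 genes whatever their p. Of these, 1 locus is not reported here. A few further list members, and the 6 highest regions per direction in part, are given as examples chosen after their values were seen.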

Additional observations from a re-analysis of the deposited data

How the results depend on the processing

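The numbers of loci depended on list length, filter, flank and the libraries fitted. From 704 loci with more and 599 with fewer summits in rMSC, the 20000 highest peaks gave 344 and 253, and a mean of at least 4 summits gave 285 and 283. No filter gave 1114 and 1109, and a flank of 50 kb gave 1329 and 1132. All deposited peaks gave 187 with fewer summits. With the replicate number as a block there were 321 and 278. Same-numbered libraries share a flow cell as well as a number. Their deviations from the group means had correlations of 0.014 and 0.005 across loci. With 2 fresh libraries these deviations mirror each other, so the correlations cannot show whether more is shared. Leaving out 1 library at a time gave 327 to 874 with more and 222 to 668 with fewer. For distal summits, all deposited peaks gave 724 with more and 129 with fewer, and leaving out 1 library of either group gave 239 to 397 and 136 to 247. With only flow cell AC99CPACXX, which leaves 1 fresh library, 573 and 630 loci passed, and with chromosome medians set equal 610 and 633.

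Regions open only in Scf-GFP-positive stroma numbered 4085 with the 20000 highest peaks and 8997 to 16806 with 1 library left out. Those open only in rMSC numbered 4288 and 10550 to 11850, and 17405 with all deposited peaks. Genes with a start peak in rMSC only numbered 193 to 270 with 1 library left out. List counts moved too. Osteoblast loci with fewer summits, 6 in the main fit, numbered 0 with the 20000 highest peaks, 2 with the replicate block and 9 with a flank of 50 kb. With the 20000 highest peaks and with the block, axon guidance loci with fewer numbered 0 and 4. Blood cell loci with fewer then numbered 1 and 4, and growth factor loci with more 1 and 3. Matrix and myofibroblast loci with more also numbered 1 and 3. The difference in distal share was 5.55 percentage points beyond 5 kb and 5.53 with all deposited peaks. Changed directions were Prrx1 (0.19) and Btg2 (0.10) with all deposited peaks, Scd1 (0.13) and Creb3l1 (0.45) with the 20000 highest, and Hoxc9 (−0.16) with a flank of 2 kb, all as log2 changes. The cause was not tested. Of 76 named loci that passed, 37 passed in every fit with 1 library left out that tested them, and 49 passed with the replicate block. Fewer kept their call with all deposited peaks (43 of 76 tested), with the 2 groups fitted alone (42 of 73), with flow cell AC99CPACXX alone (28 of 75) and with the 20000 highest peaks (11 of 28).

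Settings of tied peaks, chromosome means and the leave-outs of start peaks were added after seeing the data. Ranking by fold enrichment gave the same 2 numbers of loci. Requiring a summit inside a region could not change the numbers of regions, since regions are merged from whole peaks. Counting repeated peaks once was not run as a fit of its own, since no peaks of a list shared start and end. Motif windows of another width were not run, since no genome sequence was used. Depth is unknown, so absence from a list is no measure of closed DNA.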
